A study of Mus musculus with 3 samples.

Results

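The genes described here are 8 that are used to tell arterial from venous endothelium, with *Gja4*, *Gja5*, *Efnb2* and *Tmem100* as arterial genes, *Ephb4*, *Nr2f2* and *Aplnr* as venous genes, and *Apln*, the ligand of the APLNR receptor. The genes were chosen by name, and all 8 were found among the 27,994 genes of the count table. They were followed across 9,562 cells in the 7 clusters that the authors deposited, numbered 0 to 6. The cells were cardiac endothelial cells of female GFP-expressing mice aged 12–16 weeks, sorted for GFP, CD31 and VE-Cad and against PDGFRA, and taken fresh and after 24, 48, 72 or 96 h in co-aggregates with E11.5 Mesp1der PSCs, the PDGFRA+ stromal cells of the aorta–gonad–mesonephros that descend from *Mesp1*-expressing mesoderm. The DsRed reporter of these stromal cells was switched on by *Mesp1*–cre. Cultures contained IL-3, SCF and Flt3L at 100 ng ml-1 each. Fresh cells had also been sorted as CD41-, CD45- and PDGFRB-. Cells of all times were combined into 3 pools (A, B and C). The 8 endothelial markers, among them *Cdh5* and *Pecam1*, summed to 46.6, 49.0 and 31.4 UMIs per 10,000 in clusters 0, 1 and 2 and to at most 5.99 in clusters 3 to 6, so that clusters 0, 1 and 2 are called endothelial here.

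The fate of an endothelial cell as artery or vein is set early in development and is kept in the adult. NOTCH signalling and SoxF factors drive the arterial programme, with the ephrin-B2 ligand (*Efnb2*) on arterial cells facing its receptor EPHB4 on venous cells. NR2F2 (COUP-TFII) is a nuclear receptor that holds NOTCH signalling down in veins. In the heart, the APLNR receptor marks veins and much of the growing plexus, and its ligand apelin is made by sprouting cells. Connexin 37 (*Gja4*) and connexin 40 (*Gja5*) build the gap junctions of arterial endothelium, and *Tmem100* is a membrane protein gene downstream of BMP9 and ALK1 signalling.

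A count in these data is a unique molecular identifier (UMI), that is, 1 captured messenger RNA molecule. Library suffixes 1, 2 and 3 on the cell barcodes held 3,507, 3,958 and 2,097 cells with medians of 23,651, 13,440.5 and 38,312 UMIs per cell. The sources used here tie no suffix to a pool and no cell to a time, so that all cells were treated as 1 sample, no test was run and no P value is given. Levels are sums of UMIs per 10,000 UMIs of a cluster with exact Poisson intervals at the 95% level, which cover counting error only. The values of the 3 libraries stand beside them as a description of spread. Of the barcodes, 13 occurred in 2 libraries, so that 26 cells carried such a barcode. Clusters had been made from the same counts, and differences between them therefore describe the clusters.

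The promoters of the genes were looked at first, because *Gja4* and *Gja5* were later found in the same cells. RefSeq windows (GRCm38.p6) of 250 bases before the RefSeq gene start were at hand for 6 of the 8 genes, namely *Gja4*, *Gja5*, *Efnb2*, *Ephb4*, *Nr2f2* and *Apln*. The RefSeq start of *Gja5* is chr3:97032402, which lies 127709 bases inside the longer GENCODE interval given with its levels, so that its window precedes the RefSeq start and not the GENCODE start. The longest run of bases that the windows of *Gja4* (chr4:127314040-127314289, minus strand) and *Gja5* (chr3:97032152-97032401, plus strand) had in common was 11 bases long, TGGGATACCGG. It began at -151 in *Gja4* and at -41 in *Gja5*, counted from the RefSeq start, on the strand of each gene. This run was present in 4 of 32,851 windows in the mouse table (0.0122%, both strands searched), and the other windows were those of *Dao* and *Vps4a*. It was picked as the longest match of the 2 connexin windows, which are 2 of the 4, so that its rarity is a description. The longest runs shared by the other pairs of windows were 7 to 12 bases long and were present in 24 to 3,593 windows. The run of 12 bases was that of arterial *Gja5* with venous *Nr2f2*, present in 56 windows. The windows of the 2 connexin genes are printed 5′ to 3′ on the strand of the gene with this run in capitals, followed by the window of *Ephb4* (chr5:137349859-137350108, plus strand), in which capitals mark the reverse complement of the ETS letters GGAAGT.
Gja4: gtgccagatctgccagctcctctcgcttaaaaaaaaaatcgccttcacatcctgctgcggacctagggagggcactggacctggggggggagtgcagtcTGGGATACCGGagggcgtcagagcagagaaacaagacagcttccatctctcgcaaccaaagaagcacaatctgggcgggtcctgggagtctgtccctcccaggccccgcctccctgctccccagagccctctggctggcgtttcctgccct
Gja5: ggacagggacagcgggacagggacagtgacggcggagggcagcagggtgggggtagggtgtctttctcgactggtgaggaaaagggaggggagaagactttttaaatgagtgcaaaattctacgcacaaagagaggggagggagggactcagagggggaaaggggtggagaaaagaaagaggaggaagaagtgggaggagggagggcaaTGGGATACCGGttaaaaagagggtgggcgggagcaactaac
Ephb4: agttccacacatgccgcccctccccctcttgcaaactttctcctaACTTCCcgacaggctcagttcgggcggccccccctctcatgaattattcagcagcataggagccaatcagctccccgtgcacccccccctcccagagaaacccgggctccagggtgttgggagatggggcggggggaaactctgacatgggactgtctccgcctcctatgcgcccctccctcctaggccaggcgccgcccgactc
The 6 windows were also searched on both strands for the letters AACAAT (SOX), TGTTTAC (FOX), TGGGAA (RBPJ), GGAAGT (ETS), AGGTCA (nuclear receptors) and CACGTG (Hey-type E-box). The only match was the ETS match in *Ephb4*, which began at -205. These letters occurred in 9.42%, 3.17%, 21.6%, 19.7%, 14.02% and 6.02% of all windows, in the same order. A match of letters is a description of sequence, and no factor binding was measured here.

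The arterial genes had their highest level in cluster 0. *Gja4* (ENSMUSG00000050234, chr4:127311421-127314039) was at 14.9, 12.9 and 13.7 UMIs per 10,000 in the cluster 0 cells of libraries 1, 2 and 3, and at 13.9 over all cells (95% Poisson interval 13.6–14.1). In cluster 1 its level was 0.768, 1.34 and 1.27, and in cluster 2 it was 0.887, 0.940 and 0.891. The lowest library of cluster 0 was thus far above the highest of any other cluster, whereas the ranges of clusters 1 and 2 overlapped. In clusters 4, 6, 5 and 3 the level over all cells was 0.269, 0.264, 0.205 and 0.177, and neighbours in this order overlapped in their library ranges. The level of cluster 3 was 0.0917 without library 2. Library 2 was high for most of the genes in that cluster, and without it the level there was 0.0808 instead of 0.125 for *Efnb2*, 0.120 instead of 0.189 for *Nr2f2* and 0.232 instead of 0.349 for *Aplnr*.

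*Gja5* (ENSMUSG00000057123, chr3:96904693-97077416) showed a steeper contrast. Its level in cluster 0 was 5.40, 5.09 and 4.77 UMIs per 10,000 in libraries 1, 2 and 3. It was 0.185, 0.329 and 0.222 in cluster 1, a range that lay above that of the next cluster in order, cluster 4. Clusters 4, 2, 3 and 5 followed at 0.0659, 0.0599, 0.0575 and 0.0481 with overlapping ranges, and cluster 6 came last at 0.00928. In cluster 3 the level was 0.153 in library 2 against 0.00370 and 0.00533 in libraries 1 and 3, and without library 2 the level of that cluster was 0.00437. In cluster 4 it was 0.0373 without library 1.

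*Tmem100* (ENSMUSG00000069763, chr11:90030348-90036508) followed the same order of the endothelial clusters, with 3.12, 2.58 and 3.20 UMIs per 10,000 in cluster 0 and 0.0642, 0.199 and 0.120 in cluster 1. Cluster 4 was at 0.0718 over all cells and cluster 2 at 0.0343, and the range of cluster 4 overlapped that of cluster 1 and lay above that of cluster 2. Library 3 held no *Tmem100* UMI in the 32 cells of cluster 3. *Efnb2* (ENSMUSG00000001300, chr8:8617434-8661242) was spread more widely. Its level was 2.77, 3.50 and 3.13 in cluster 0 and 1.46, 2.29 and 1.69 in cluster 1, so that the clusters differed 1.82-fold over all cells and their library ranges stayed apart. Clusters 4 and 2 had 0.640 and 0.610 with overlapping ranges, and clusters 3, 6 and 5 had 0.125, 0.0993 and 0.0904.

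The venous genes did not share one pattern. *Ephb4* (ENSMUSG00000029710, chr5:137350109-137378669) stood at nearly the same level in the 3 endothelial clusters, at 0.959, 0.906 and 0.878 UMIs per 10,000 in cluster 0, 0.981, 1.002 and 0.860 in cluster 1, and 0.856, 0.928 and 0.873 in cluster 2. All of these ranges overlapped. Clusters 4 and 3 followed at 0.360 and 0.259, and clusters 6 and 5 at 0.0947 and 0.0794.

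*Nr2f2* (ENSMUSG00000030551, chr7:70351944-70366735) was lowest among the endothelial clusters in cluster 0, at 0.0901, 0.191 and 0.0950 UMIs per 10,000. Cluster 1 had 0.478, 0.716 and 0.488, and cluster 2 had 1.04, 1.39 and 1.06, with no overlap between these clusters. The highest level belonged to cluster 4, in which fibroblast genes such as *Col1a1* and *Col3a1* were high, at 1.58, 2.06 and 1.24, and this range overlapped that of cluster 2. Cluster 0 did not stand apart from clusters 6 and 5, at 0.130 and 0.0768.

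*Aplnr* (ENSMUSG00000044338, chr2:85136225-85139923) was highest in cluster 2, at 3.72, 3.79 and 4.00 UMIs per 10,000 in libraries 1, 2 and 3. It was at 1.39, 1.51 and 1.92 in cluster 1 and at 0.347, 0.465 and 0.320 in cluster 0. Each of these 3 clusters kept apart from the next. Cluster 0 overlapped with clusters 3 and 6, at 0.349 and 0.308, and clusters 5 and 4 were at 0.218 and 0.188. The ligand gene *Apln* (ENSMUSG00000037010, chrX:48025146-48034853) had another order, with 0.637, 0.361 and 0.492 in cluster 1 against 0.324, 0.331 and 0.334 in cluster 2. The remaining clusters held between 0.0111 and 0.0406, with cluster 0 at 0.0278 from 35 UMIs.

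**Figure D1:**
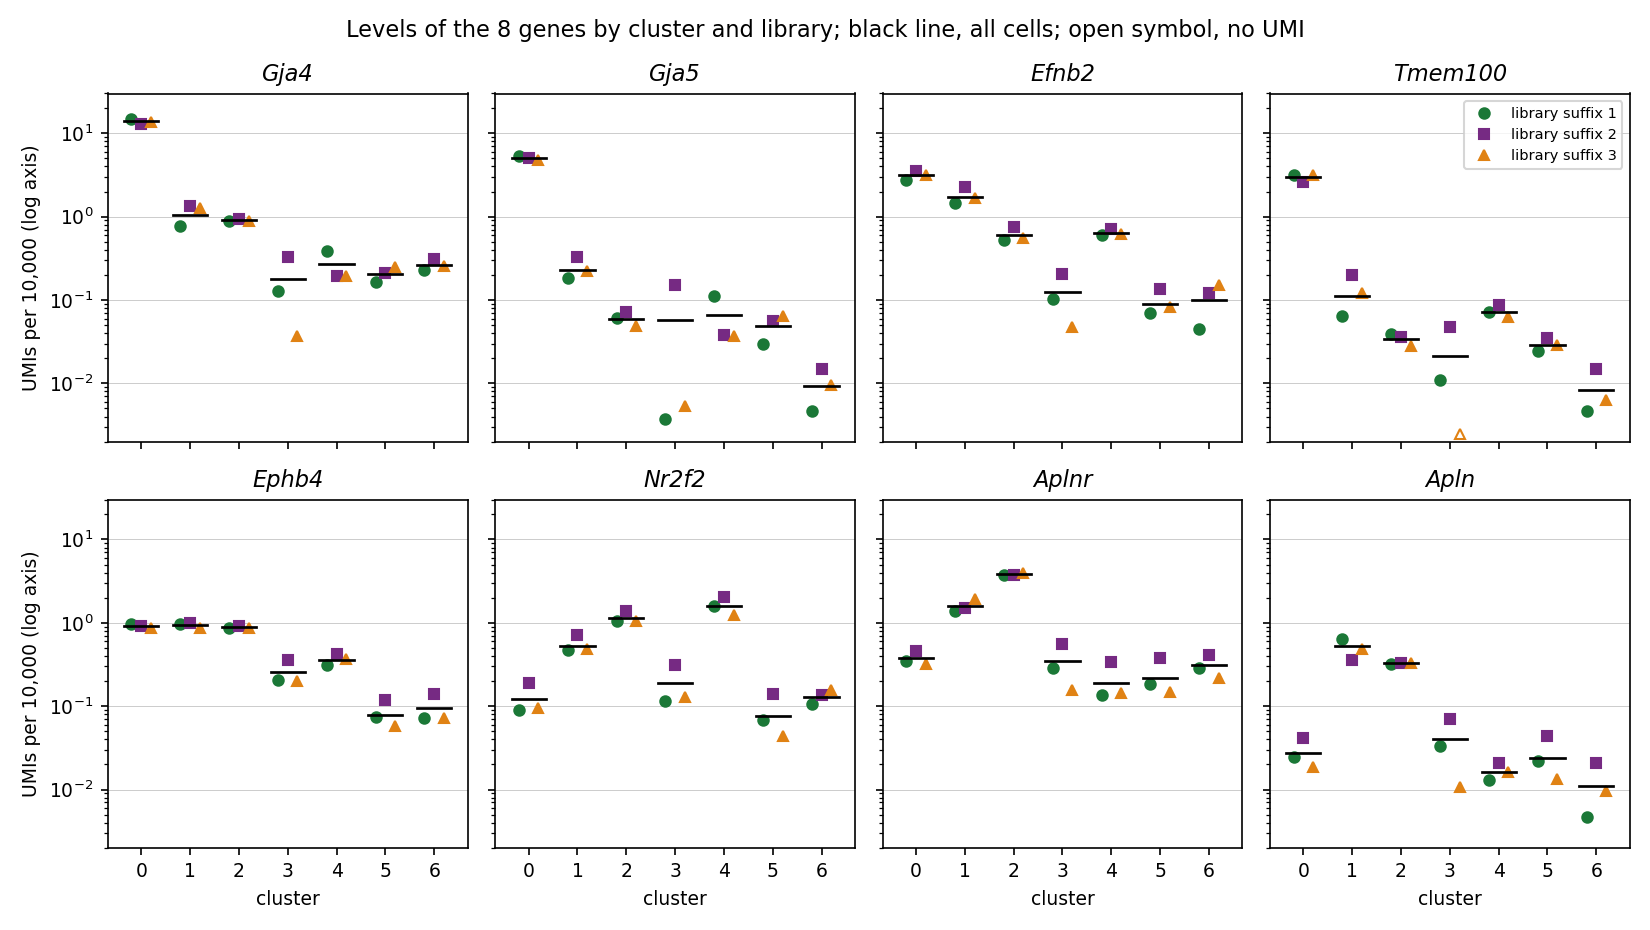
Level of each of the 8 genes in UMIs per 10,000 UMIs (log axis) in clusters 0 to 6, with 1 symbol per library suffix, a black line for all cells of the cluster and an open symbol at the lower edge where no UMI was counted. *Gja4*, *Gja5* and *Tmem100* peaked in cluster 0, *Aplnr* in cluster 2 and *Nr2f2* in cluster 4, while *Ephb4* was level across clusters 0, 1 and 2.

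Cluster 0 was then set against cluster 2, which held 5,396 of the cells. Genes were called higher or lower where the ratio of levels was at least 2, the 3 libraries had 1 direction and the higher cluster had at least 0.1 UMI per 10,000. Of 8,676 genes above this minimum, 9.15% were called higher in cluster 0 and 2.77% higher in cluster 2 (11.9% in either direction). The 4 arterial genes were among the first and *Nr2f2*, *Aplnr* and *Apln* among the second. The log2 ratio was 6.44 for *Tmem100* (95% interval 6.30 to 6.58; library range 6.15 to 6.84), 6.41 for *Gja5*, 3.94 for *Gja4* and 2.35 for *Efnb2*. It was -3.24 for *Nr2f2* (-3.48 to -3.01), -3.36 for *Aplnr* and -3.57 for *Apln*. *Ephb4* had a log2 ratio of 0.05 (-0.04 to 0.14), with library values from -0.03 to 0.16, and was not called. The median of all genes above the minimum was 0.09.

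Further genes of the same pathways were taken from lists of other arterial, venous, capillary and signalling genes. Among 24 other arterial genes, 23 passed the minimum level and all of these 23 were called higher in cluster 0, with a median log2 ratio of 2.62. A gene could pass the minimum through cluster 0 alone, so that this count is given as a description. The largest ratios were those of *Bmx*, a kinase gene of arterial endothelium (0.650 against 0.00591 UMIs per 10,000, log2 ratio 6.78), the elastin gene *Eln* (5.998), the NOTCH target *Hey2* (5.81) and *Fbln5*, which encodes an elastic fibre protein (5.53). *Alpl* did not reach the minimum. The smooth muscle genes *Acta2* and *Tagln* were also higher in cluster 0, at 1.49 and 1.42 UMIs per 10,000 against 0.0252 and 0.0515, with *Myh11* at 0.00318. The sum of the 5 smooth muscle markers lay between 2.82 and 3.09 over the libraries of cluster 0 and between 0.0498 and 0.129 for cluster 2. Its part in the arterial ratios was not tested.

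Few of the other venous genes had the direction of *Nr2f2* and *Aplnr*. Of 14, 8 passed the minimum, and *Nrp2*, a receptor for VEGFC and semaphorins, was the 1 called higher in cluster 2 (1.70 against 0.222 UMIs per 10,000, log2 ratio -2.94). *Vwf*, the gene of von Willebrand factor, was called in the opposite direction, at 5.21 in cluster 0 against 0.216 in cluster 2 (log2 ratio 4.59). The median log2 ratio of the 8 genes was -0.10. The lymphatic markers *Prox1*, *Mmrn1* and *Lyve1*, 3 of 4 that passed the minimum, were also lower in cluster 0 (-2.53, -1.96 and -1.93), and the list of 6 summed to between 0.604 and 0.898 UMIs per 10,000 over the libraries of cluster 0 and to between 1.78 and 2.26 over those of cluster 2. The part of lymphatic RNA in the venous values was not tested. *Emcn*, the endomucin gene, differed little, at 7.07 against 7.81, and *Selp* and *Ackr1* were at 0.0119 and 0.00159 in cluster 0 and at 0.0107 and 0.0197 in cluster 2. Cluster 0 was also high in *Npr3*, a natriuretic peptide receptor gene of the endocardium, at 2.65 against 0.269, whereas *Hapln1* was lower, at 1.68 against 3.88.

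Among the ephrins and Eph receptors other than *Efnb2* and *Ephb4*, 4 of 10 passed the minimum, of which *Epha4* and *Efna1* were called higher in cluster 0 (log2 ratios 2.34 and 1.84). The connexins beyond *Gja4* and *Gja5* were represented by *Gja1* and *Gjc1* alone, and both were within 2-fold (log2 ratios -0.19 and 0.03). *Nr2f1*, the close relative of *Nr2f2*, was lower in cluster 0 (-2.20), while *Nr2f6* was not called (0.30). BMP–ALK1 signalling lies upstream of *Tmem100*, and the list of its genes also held inhibitors and targets of the pathway. Of these genes, 5 of 11 were called higher in cluster 0 and none in cluster 2 by this rule. They were led by the inhibitory *Smad6* (3.84) and *Smad7* (2.43), followed by the BMP target *Id1* (1.53), with a median of 0.93. Of 11 apelin and sprouting genes, 3 were higher in cluster 0, namely *Cxcr4* (3.22), *Dll4* (2.32) and *Plaur* (1.65), and 3 were lower, namely *Kcne3* (-4.497), *Adm* (-1.71) and *Trp53i11* (-1.59), with a median of 0.81.

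Cluster 1 differed from cluster 2 in another way. Of 9,191 genes, 20.0% were called higher in cluster 1 and 10.4% higher in cluster 2 (30.4% in either direction). *Gja5*, *Tmem100* and *Efnb2* were higher in cluster 1, with log2 ratios of 1.93 (95% interval 1.70 to 2.16), 1.70 and 1.49. *Aplnr* and *Nr2f2* were lower, at -1.28 and -1.12. *Gja4* (0.22), *Ephb4* (0.10) and *Apln* (0.68) were not called. The median over 1,326 genes with at least 1 UMI per 10,000 in both clusters was -0.20, and relative to it *Nr2f2* was at -0.92 and no longer past 2-fold. In comparison with cluster 2, *Gja4* and *Gja5* therefore went apart in cluster 1, although both peaked in cluster 0.

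Capillary and leukocyte genes were higher in cluster 1. Of 14 capillary genes, 12 were called higher than in cluster 2, led by the fatty acid carrier gene *Fabp4* (65.0 against 1.33 UMIs per 10,000, log2 ratio 5.62) and *Gpihbp1* (5.27). Of 23 other arterial genes above the minimum, 17 were called higher, among them *Fbln5* (5.32) and *Eln* (4.55), whereas *Hey1*, *Sox17* and *Notch1* stayed within 2-fold (0.80, 0.63 and 0.88). The other venous genes had 6 of 12 higher, led by the adhesion genes *Selp* (6.84) and *Vcam1* (5.92), and 1 lower, *Plvap* (-1.70). The sprouting genes *Pgf* (6.86), *Plaur* (4.55) and *Angpt2* (4.35) stood at the top of 9 of 13 that were higher. The 7 leukocyte markers summed to 4.54 to 21.9 UMIs per 10,000 over the libraries of cluster 1 and to 0.0510 to 0.236 in cluster 2, and the 6 fibroblast markers to 2.29 to 3.73 against 0.124 to 0.205. Pericyte markers summed to 0.768 to 2.05 against 0.293 to 0.394, and smooth muscle markers to 0.252 to 1.86 against 0.0498 to 0.129. The part of these cell types in the values of cluster 1, the matrix genes *Fbln5* and *Eln* included, was not tested. Of the cell cycle genes, 15 of 16 were lower in cluster 1.

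**Figure D2:**
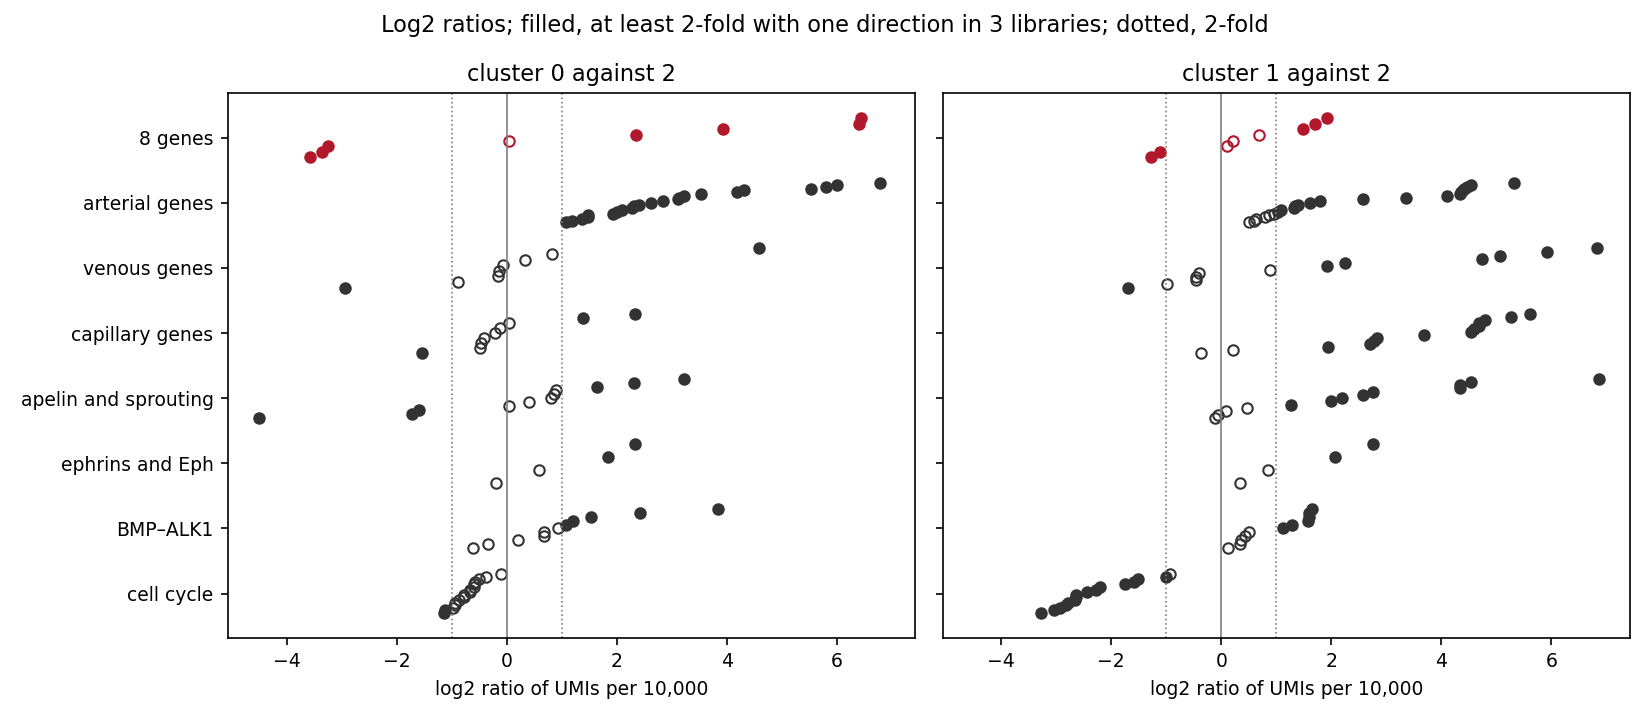
Log2 ratios of UMIs per 10,000 for cluster 0 against 2 (left) and cluster 1 against 2 (right), with 1 point per gene above the minimum level, red for the 8 genes and black for genes of 7 lists. Filled points passed 2-fold with 1 direction in 3 libraries. The other arterial genes lay to the right of the 2-fold line for cluster 0, whereas the venous genes were spread over both sides.

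Levels do not show how many cells carry a transcript, and the chance of seeing one grows with the UMIs of the cell. Each cell was therefore thinned to 5,000 UMIs before shares were counted, which left out the 90 cells below that number and kept 722, 745 and 5,377 cells of clusters 0, 1 and 2. The study states a minimum of 5,000 UMIs per cell, which 9,472 of the 9,562 deposited cells met. *Gja4* was found in 96.4% of the cells in cluster 0 (exact 95% binomial interval 94.8–97.6%), *Gja5* in 81.2%, *Efnb2* in 76.0% and *Tmem100* in 57.2%. *Aplnr* was found in 77.9% of cluster 2 (76.7–79.0%) and in 10.2% of cluster 0 (8.13–12.7%), and *Nr2f2* in 41.2% and 4.85%. *Ephb4* was found in 39.9%, 37.7% and 35.1% of clusters 0, 1 and 2. *Efnb2* was found in 42.6% and 27.3% of the cells in clusters 1 and 2, more often than *Gja4* (17.9% and 19.5%). *Apln* was rare throughout, at most 13.97% (cluster 2), even though cluster 1 had the higher level.

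Without thinning and at a threshold of 0.5 counts per 10,000 UMIs (CPTT) the shares were larger. *Gja4* reached 98.4% and *Ephb4* 65.0% of cluster 0, and *Aplnr* reached 91.2% and *Ephb4* 64.6% of cluster 2. Clusters 3 to 6, which are not led by endothelial genes, served as a reference. How much of the arterial and venous RNA in them was free RNA and how much their own was not tested. At 5,000 UMIs they had *Gja4* in 5.08% to 14.6% of the cells, *Gja5* in 0.647% to 3.77%, *Tmem100* in 0.324% to 3.12% and *Aplnr* in 6.45% to 21.3%. Median depths were 14,061 UMIs per cell in cluster 0, 22,493 in cluster 2 and between 19,475.5 and 36,065.5 in clusters 3 to 6. The shares of *Gja5* (2.83%) and *Tmem100* (1.86%) in cluster 2 lay within this reference, so that the shares by themselves did not set cluster 2 apart from clusters 3 to 6. These transcripts were not spread evenly over the cells of cluster 2, as the pairs of genes show. The 10.2% for *Aplnr* in cluster 0 also lay within the reference, but without library 2 it was 9.13% against 4.19% to 7.64% in clusters 3 to 6. The *Nr2f2* share of cluster 0 was equal to the lowest in the reference, that of cluster 5 (4.85%). Without library 2 these shares were 3.42% in cluster 0 and 1.63% in cluster 5.

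Arterial and venous transcripts were next counted in the same cell. A cell was called doubly positive with at least 1 UMI of an arterial gene and at least 1 of *Ephb4*, *Nr2f2* or *Aplnr*. In cluster 0, 344 of 722 cells (47.6%, 43.9–51.4%) were doubly positive, with 50.0%, 47.2% and 44.6% in libraries 1, 2 and 3. An arterial transcript was found in 99.2% of the cells and a venous one in 47.9%, and the product of these shares was 47.5%. With nearly every cell positive for the arterial class, the doubly positive share was fixed by the venous share and says nothing of a relation between the classes. In cluster 2, 1,718 of 5,377 cells (32.0%, 30.7–33.2%) were doubly positive, with 27.1%, 38.2% and 26.9% in the libraries, against a product of 34.0%. Library 2 was higher than the others there, and the share without it was 27.0%. In each library of cluster 2 the share was below that product (29.4%, 40.0% and 29.1%).

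The doubly positive state rested on different genes in the clusters. In cluster 0, 83.4% of the doubly positive cells had *Ephb4*, 21.2% *Aplnr* and 9.88% *Nr2f2*, and *Ephb4* was the only venous gene in 251 of the 344 (73.0%). In cluster 2 the arterial side came from *Efnb2* in 72.7% and *Gja4* in 47.5% of the doubly positive cells, and *Efnb2* was the only arterial gene in 843 of 1,718 (49.1%). *Aplnr* was then present in 82.6%. A doubly positive cell holds a gene of each class by definition. These shares therefore describe which genes made up the classes and were not compared with all cells positive for a class. When *Ephb4* was left out of the venous set, a choice made after its level was seen, the share was 12.9% in cluster 0 and was 28.9% in cluster 2. With *Gja4* or *Gja5* as the arterial set and *Ephb4* or *Nr2f2* as the venous set, the shares were 41.6% and 10.6%. In cluster 1 the full sets gave 32.9% of 745 cells, with *Efnb2* in 81.2% and *Ephb4* in 60.8% of the doubly positive cells.

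All 4 arterial genes were found together in 279 cells of cluster 0 (38.6%) and 3 of them in another 278. In cluster 2, 62.1% of the cells had none of the 4, 14 cells had all 4 and 91 had 3. All 3 venous genes were found in 744 cells of cluster 2 (13.8%) and in 6 cells of cluster 0 (0.831%).

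**Figure D3:**
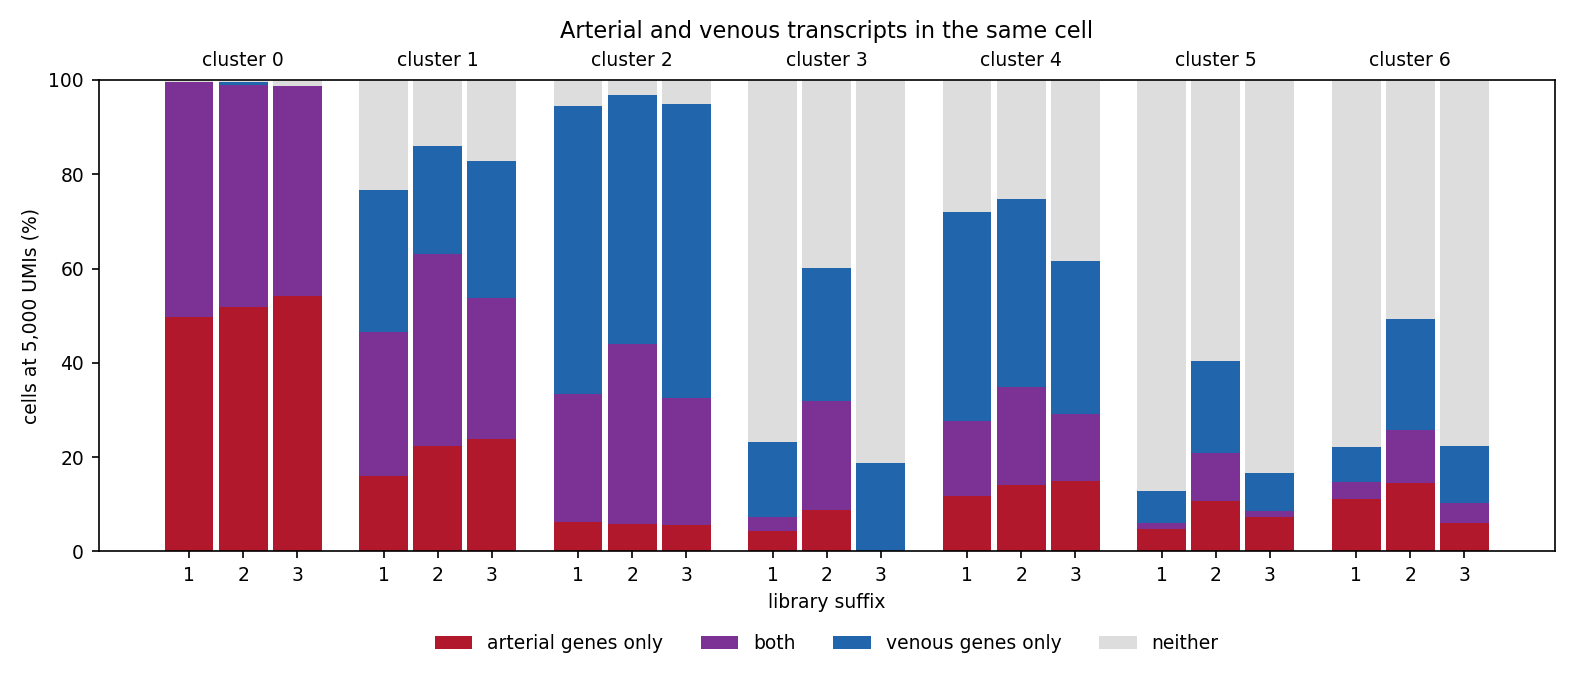
Share of cells (%) with arterial genes only, both classes, venous genes only or neither, by cluster and library suffix, after thinning to 5,000 UMIs per cell. Cells with both classes made up 44.6% to 50.0% of cluster 0 and 26.9% to 38.2% of cluster 2, and library 2 had the largest share of them in clusters 1 to 6.

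Pairs of genes showed which transcripts kept company. For each pair a log2 odds ratio was computed from the cells with both, either or neither gene, positive where the genes were found together more often than their single shares would give. The ratio had 0.5 added to each count, and its sign in a library was taken from the counts without this addition. In cluster 2, all 6 pairs of arterial genes were positive in every library, from 1.21 for *Efnb2* with *Tmem100* to 4.27 for *Gja5* with *Tmem100*. *Gja5* was found in 10.9% of the *Gja4*-positive cells and in 0.855% of the *Gja4*-negative cells (log2 odds ratio 3.82, with 4.46, 3.09 and 7.62 in the libraries). The size of the value in library 3 rested on the 0.5 added, since each of its *Gja5*-positive cells also held *Gja4*. *Efnb2* was found in 49.7% and 21.9% of these groups (1.82). *Aplnr*, by contrast, was less frequent among *Gja4*-positive cells, at 57.9% against 82.7% (-1.79; -2.14, -1.42 and -2.20), and *Nr2f2* was at 26.2% against 44.9% (-1.20). *Ephb4* was spread evenly, at 35.6% against 34.95% (0.04, with mixed signs).

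Of the 12 arterial–venous pairs in cluster 2, 8 were negative in all libraries, and the 4 with mixed signs were those of *Ephb4*. *Ephb4* was positive with *Nr2f2* (0.47) and weakly so with *Aplnr* (0.13), and *Nr2f2* was positive with *Aplnr* (0.84). *Apln* was positive with *Aplnr* (0.47), negative with *Gja4* (-0.92) and near 0 with *Nr2f2* (-0.01). In cluster 0 the rare venous transcripts also occurred together. *Aplnr* was found in 14 of 35 *Nr2f2*-positive cells (40.0%) and in 8.73% of the rest (log2 odds ratio 2.81, 95% interval 1.63 to 3.92; 3.11, 2.61 and 2.76 in the libraries). *Apln* with *Aplnr* gave 3.02 from 6 cells with both. *Gja4* with *Gja5* gave 3.41, whereas *Efnb2* with *Tmem100* gave 0.22 with mixed signs. Cells of 1 sample share their source, and these odds ratios are given without a test.

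**Figure D4:**
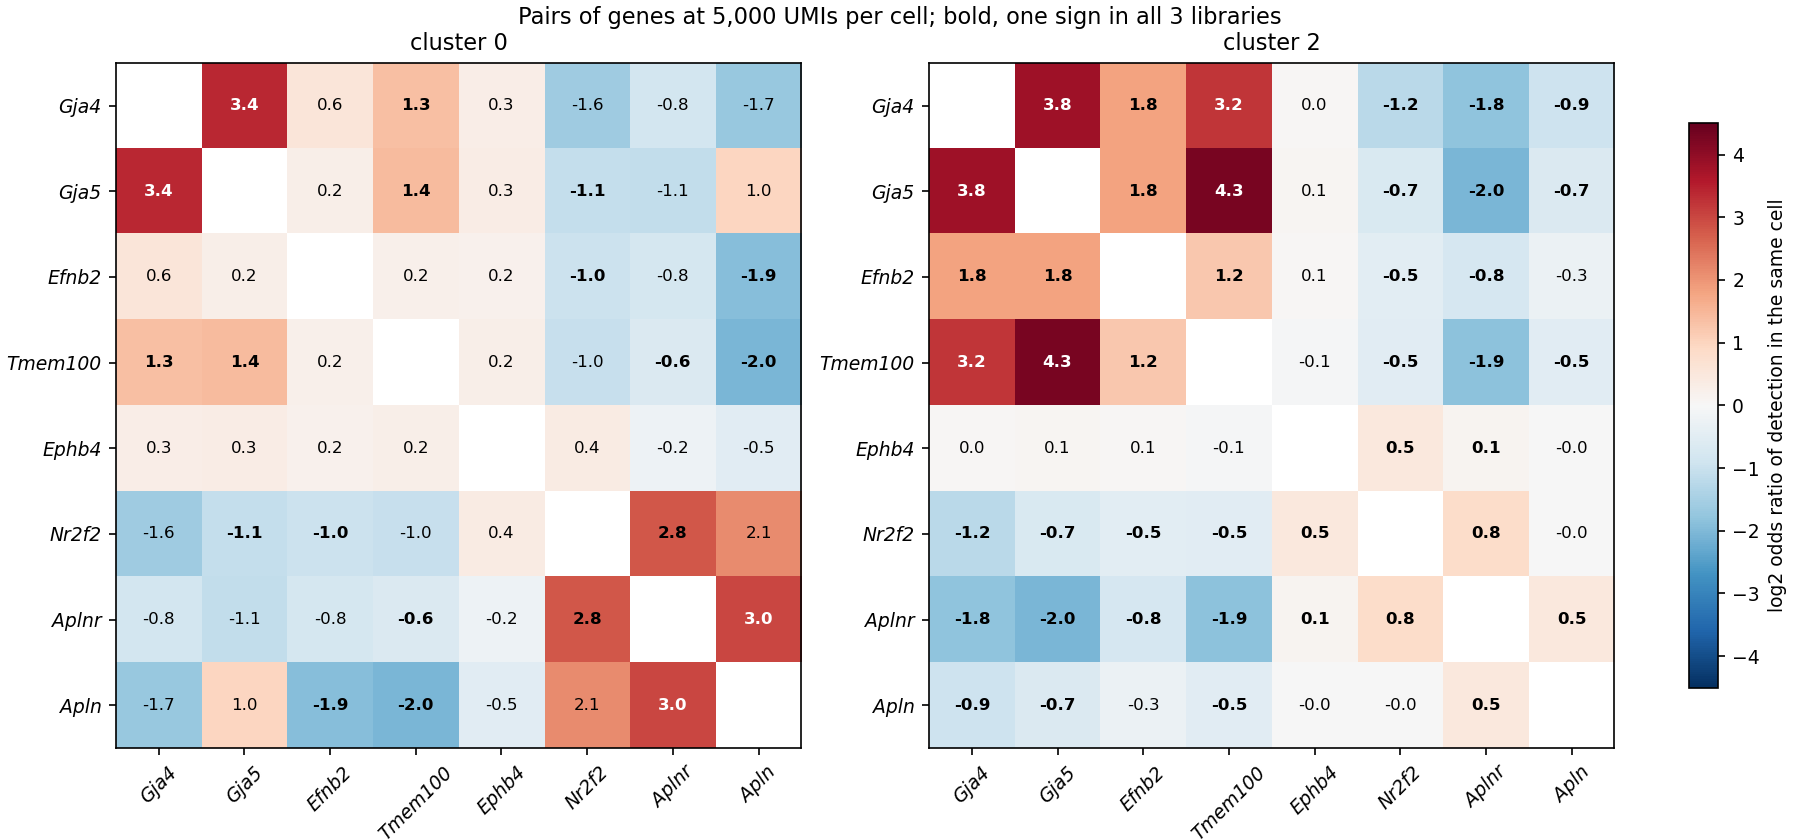
Log2 odds ratio of finding 2 of the 8 genes in the same cell at 5,000 UMIs, for cluster 0 (left) and cluster 2 (right), red for pairs found together more often than their single shares give and blue for less often. Bold numbers have 1 sign in all 3 libraries. In cluster 2 the arterial genes form a red block and are blue with *Nr2f2* and *Aplnr*, while the *Ephb4* row is near 0.

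The opposition of *Gja4* and *Aplnr* in cluster 2 was graded. Cells were divided by their *Aplnr* UMIs at 5,000 UMIs, with limits chosen after the values were seen. The 1,191 cells without *Aplnr* had 1.47 *Gja4* UMIs per cell (1.54, 1.38 and 1.55 in libraries 1, 2 and 3). The mean was 0.492 in the 1,267 cells with 1 *Aplnr* UMI, 0.266 with 2 or 3, 0.167 with 4 to 6 and 0.0859 in the 128 cells with 7 or more. Each library showed this order. *Efnb2* was at 0.562 in the first group and between 0.297 and 0.332 in the others.

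*Nr2f2* went the other way, from 0.475 UMIs per cell without *Aplnr* to 0.953 with 7 or more. *Ephb4* stayed between 0.399 and 0.441 up to 3 *Aplnr* UMIs and was at 0.529 and 0.930 in the last groups. *Nrp2* (0.689 to 1.62) and *Emcn* (3.34 to 5.50) were highest in the last group, and the NOTCH target *Hey1* went from 0.414 to 0.0469. The sum of the 16 cell cycle genes was between 12.5 and 14.7 in all groups. The sum of the 8 endothelial markers was 16.0 to 17.8 in the first 4 groups and 23.7 in the last, whose median depth was also lower (14,762 against 22,084 to 23,151 UMIs per cell before thinning), and the part of depth in these values was not tested.

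**Figure D5:**
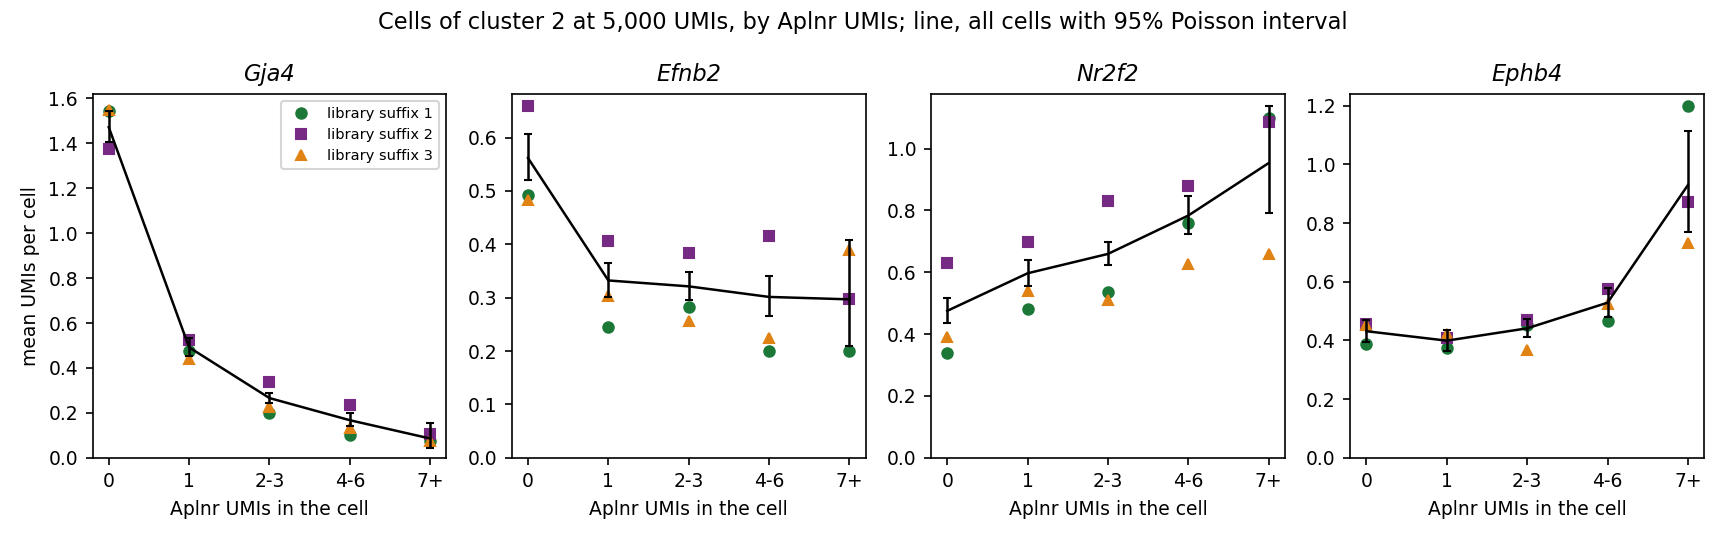
Mean UMIs per cell of *Gja4*, *Efnb2*, *Nr2f2* and *Ephb4* in cells of cluster 2 thinned to 5,000 UMIs, by the number of *Aplnr* UMIs in the cell. Symbols are library suffixes and the black line is the mean over all cells with its 95% Poisson interval. *Gja4* went from 1.47 to 0.0859 while *Nr2f2* went from 0.475 to 0.953.

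*Runx1*, the transcription factor gene that endothelial cells switch on as they turn to blood, divided cluster 0 into 51 cells with at least 1 UMI and 671 without at 5,000 UMIs. The 4 arterial genes and *Ephb4* were lower in the *Runx1*-positive cells. *Gja4* was at 2.80 against 7.54 UMIs per cell (log2 ratio -1.43, interval -1.68 to -1.19), and the positive cells had 3.52, 2.32 and 2.25 in libraries 1, 2 and 3 against 8.32, 6.96 and 7.27. *Gja5* was at 1.10 against 2.86 and *Tmem100* at 0.353 against 1.59, both lower in 3 of 3 libraries. *Efnb2* was closer, at 1.24 against 1.74. *Ephb4* was at 0.294 against 0.520 (log2 ratio -0.82, interval -1.68 to -0.08), lower in 3 of 3 libraries. In cluster 1, split in the same way into 42 and 703 cells, *Gja4* was higher with *Runx1*, at 0.833 against 0.404 (1.04, interval 0.49 to 1.55), and in 3 of 3 libraries. *Efnb2* was lower there, at 0.310 against 0.892 (-1.53, interval -2.44 to -0.74). *Gja5* was at 0.0714 against 0.117, with an interval that held 0, and *Tmem100* had no UMI in the positive cells. *Aplnr* was lower in the positive cells of cluster 1, at 0.0952 against 0.787 (-3.05, interval -4.93 to -1.68), and in 3 of 3 libraries. *Ephb4* was at 0.286 against 0.514 (-0.85, interval -1.81 to -0.02) but was higher in the positive cells of library 3. The intervals of *Nr2f2* and *Apln* held 0 there. The 42 cells held 30.8 against 3.17 leukocyte and 4.98 against 0.853 megakaryocyte UMIs per cell. Both were lower in the positive cells of library 3. Endothelial UMIs were at 10.6 against 26.8. The part of these markers in cluster 1 was not tested. In cluster 0, *Aplnr* had 13 UMIs in the *Runx1*-positive cells (0.255 against 0.133), with an interval of the log2 ratio that held 0 (-0.02 to 1.79). Its value was lower in the positive cells of library 1 (0.0476 against 0.120), and *Nr2f2* had 6 UMIs in the positive cells of cluster 0. The sum of the 8 endothelial markers was lower in the positive cells of cluster 0, at 14.4 against 25.7. Leukocyte markers were higher there, at 0.608 against 0.0999. The part of these markers, and of depth (19,190 against 13,852 UMIs per cell in cluster 0), was not tested.

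Outside the endothelial clusters, doubly positive cells made up 14.2%, 17.2%, 4.91% and 7.44% of clusters 3 to 6. They came mostly from library 2 in clusters 3 and 5, with 32 of 34 and 66 of 77 cells, and without that library the shares of the 4 clusters were 1.98%, 15.3%, 1.19% and 3.82%. In cluster 4 the share was near its product (17.4%). The 8 endothelial markers moved with the doubly positive state. In cluster 5, its 77 cells had 9.69 endothelial UMIs per 5,000 and the 1,176 cells with neither class had 1.85, with median depths of 7,140 and 39,181.5 UMIs. In cluster 3 the means were 10.0 in 34 cells and 1.59 in 134 cells, with medians of 7,928.5 and 36,122 UMIs. Library 2 was also the shallowest, with a median of 11,625 UMIs in cluster 3 against 40,205 and 54,048.5. In cluster 5 its median was 15,301 UMIs against 40,557 and 64,538. The medians of the doubly positive cells lay below those of library 2 in both clusters. The parts of depth and of library were not tested. The part of endothelial RNA from other cells was not tested. Scrublet, a doublet caller, marked 8 of all cells (0.0837%), which is too few to be taken as working.

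The genes most like each of the 8 were sought by Pearson's r over the 21 sums of 7 clusters and 3 libraries, on the scale of log2(UMIs per 10,000 + 0.1), among the 5,500 genes that reached 0.5 UMI per 10,000 in any cluster. These points share libraries and clusters, and r is given as a description. *Gja5* and *Tmem100* were each other's nearest gene (r = 0.988). *Bmx* (0.969) and *Pi16* (0.965) came next for *Gja5*, and *Hey2* (0.978) and *Sost* (0.972) for *Tmem100*. *Gja4* was nearest to the endocardial gene *Npr3* (0.976), followed by *AU021092* and *Dhh*, and its r with *Gja5* was 0.9497. *Efnb2* was nearest to the netrin receptor gene *Unc5b* (0.987), *Ptpn14* (0.976) and the NOTCH ligand *Jag1* (0.976).

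On the venous side, *Ephb4* was nearest to the laminin gene *Lamb1* (0.976) and *Dlc1* (0.974). It lay closer to *Efnb2* (0.884) than to *Nr2f2* (0.506) or *Aplnr* (0.682). *Aplnr* was nearest to *Gm45837* (0.944), *Pcdh17* (0.934) and *Ripply3* (0.926), and *Apln* to the kinase gene *Sgk1* (0.980), *Gm45837* (0.964) and *Nostrin* (0.960). Receptor and ligand had an r of 0.902. *Nr2f2*, with a peak outside the endothelial clusters, had no close neighbour, and its first were *Pcnp* (0.885), *Flrt2* (0.884) and *Hdgfl3* (0.860). Over the 7 clusters without division by library, *Jag1*, *Hey2*, *Sost*, *Dlc1*, *Hdgfl3* and *Ripply3* were no longer among the 3 nearest and the other named genes were.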

How the data were processed

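Single cells were sequenced with 10x 3′ chemistry. Per the submitters' notes and the study's methods, reads were aligned to mm10 and counted by Cell Ranger 3.1.0, the 3 pools were aggregated with removal of batch effects, and Seurat 3.1.5 is named among the tools. The authors deposited UMI counts per gene and cell, natural log values of CPTT + 1, and a table of cluster numbers (a label with no unit) with UMAP coordinates as scores. The UMAP scores that the authors deposited were not used further, and 0 columns of other samples were present. The deposited log values equalled those recomputed from the counts. Of 27,998 gene identifiers, 27,645 were given a symbol from GENCODE and 353 kept their identifier. Counts were summed per cluster and library suffix and divided by total UMIs. For shares, cells were thinned to 5,000 UMIs (random seed 1). Exact 95% intervals (Poisson for levels, conditional binomial for ratios, Clopper–Pearson for shares) cover counting error only. Since no source maps cells to the 3 pools or to times, cells were treated as 1 sample and no test was made. The ratios over all genes and the pattern likeness were tested on simulated data, and the other calculations were not. All were run in Python 3.11.15 with numpy 2.4.6, pandas 2.3.3, scipy 1.17.1 and scanpy 1.11.5. The 8 genes and the lists were chosen with earlier results of these data known. Named list genes were those with the largest absolute log2 ratios among the called, and list genes named without a call were chosen after their values were seen. Alternatives changed depth, gene sets, minimum level, ratio, scaling and libraries. A further gene among those nearest to *Ephb4* is not reported here.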

Additional observations from a re-analysis of the deposited data

How the results depend on the processing

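The doubly positive share depended on depth and on the definition. For cluster 0 (47.6%) it was 28.3% at 3,000 UMIs, 66.4% at 10,000 UMIs and 78.0% without thinning, and for cluster 2 (32.0%) it was 19.4%, 46.0% and 67.7%. With the narrow gene sets the shares were 41.6% and 10.6%, with 2 UMIs per set 15.5% and 9.78%, and without *Ephb4*, a choice made after the data were seen, 12.9% and 28.9%. Leaving out each library suffix in turn gave 46.2% to 48.6% for cluster 0 and 27.0% to 34.5% for cluster 2. Leaving out the deepest 5% of cells moved neither share beyond its interval. Scrublet called 8 of all cells, too few for their removal to move a share, so that this setting says nothing of doublets. Genes past 2-fold between clusters 0 and 2 numbered 1,034, with 209 at a minimum of 1 UMI per 10,000, 2,755 with no minimum and 2,475 at a ratio of 1.5. Between clusters 1 and 2 they numbered 2,791, with 708, 5,008 and 4,630. Leaving out 1 library gave 1,025 to 1,093 and 2,702 to 2,884. With these settings *Apln* was called between clusters 1 and 2 at a ratio of 1.5, and *Nr2f2* was not called there after scaling by the median ratio (-0.92). In levels, the cluster with the highest value was the same for 8 of 8 genes under each alternative, but single levels were not stable. Of 56, 17 moved over 1.5-fold with the mean of the cells' CPTT (up to 2.76-fold), 9 without library 2 (up to 13.2-fold) and 2 without library 1, in clusters 3 to 6. Signs of the gene pairs taken with 0.5 added to each count gave the same calls in clusters 1 and 2 and changed 4 of 28 in cluster 0, and the signs without it are the ones printed. No paired test was run, since all cells were treated as 1 sample. The 2-fold rule did compare clusters within each library suffix, and values within each library stand beside the pooled ones. Shares of cells, unlike levels, are limited by the 5,000 UMIs kept per cell.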

Other observations

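Within cluster 2, cells divided by their *Gja4* UMIs at 5,000 UMIs (limits chosen after the values were seen) also differed in genes of the NOTCH pathway. The 4,326 cells without *Gja4* had 0.0707 *Hey1* and 0.127 *Dll4* UMIs per cell, and the 206 cells with 5 or more had 1.31 and 0.801. *Aplnr* was at 2.20 and 0.466 in these groups and *Nr2f2* at 0.683 and 0.194, while *Ephb4* was at 0.454 and 0.544. The sum of the 16 cell cycle genes was 14.7 and 9.91. Median depths were 23,785.5 and 17,942 UMIs per cell, and the part of depth was not tested.

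Within cluster 0, the 136 cells without *Gja5* at 5,000 UMIs had 0.382 *Runx1* UMIs per cell, and the 97 cells with 6 or more had 0.0309. *Vwf* was at 2.01 and 5.01 and *Npr3* at 0.706 and 2.24 in the same groups. The endothelial markers summed to 20.0 and 30.1 and the leukocyte markers to 0.272 and 0.0412, and the part of these markers was not tested.

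Cells with *Apln* also held more *Esm1*, a gene of sprouting tip cells. In cluster 1, the 60 cells with *Apln* had 54 *Esm1* UMIs and the 685 without had 143 (0.209 per cell). In cluster 2 there were 150 *Esm1* UMIs in 751 cells with *Apln* (0.1997 per cell) and 484 in 4,626 cells without (0.105 per cell).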
